A study of Homo sapiens with 4 samples.

Results

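The POU domain transcription factors examined here are 9 genes, POU3F2, POU3F1, POU3F3, POU2F1, POU2F2, POU2F3, POU4F1, POU5F1 and POU6F1, chosen by symbol from the 28277 genes of a deposited count table. All 9 were found. They were followed in NCI-H520, an established cell line of lung squamous cell carcinoma labelled as wild type. RNA sequencing libraries came from 2 samples given ultrapure water (Vehicle) and 2 samples given 10 µM Hx1R8, both for 12 h. By its title, the series is about SOX2 assembling with itself and about resistance to drugs. The sources used here do not describe the make-up of Hx1R8. A single line was used, and the labels do not state whether replicates came from separate cultures, so the p-values rest on the spread of these libraries alone, and that spread may be technical. Totals ran from 17259403 to 20920857 counts per library. Values are in CPM, a gene's count divided by the library total and set to a common scale, with TMM factors between libraries. Of 12 squamous markers, 7 were below 1 CPM in every library, among them TP63, at 0.431 ± 0.044 CPM in Vehicle (SD, n = 2), and KRT14 and DSG3, with 0 counts, so most of these markers of the labelled cell type were near or at 0. The 3 most abundant were PITX1 at 126 ± 1.57, TRIM29 at 29.5 ± 2.60 and KRT6A at 19.8 ± 0.12 CPM in Vehicle (SD, n = 2), and 0 of the 7 tested markers passed an adjusted p of 0.05. At an unadjusted p under 0.05 there were 3 of the 7, against 3.39% of all tested genes. In 4 of the 7 the groups did not overlap, against 29.8% of all tested genes. The log2 fold changes went both ways, above 0 for 4 of the 7 and below 0 for 3. PITX1 was at 125 and 127 CPM in Vehicle and 135 and 139 CPM in Hx1R8. KRT6A went the other way, at 19.9 and 19.7 CPM in Vehicle and 17.8 and 17.1 CPM in Hx1R8.

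POU factors bind DNA through a bipartite domain, a POU-specific part and a POU homeodomain joined by a flexible linker. Many recognise the octamer, a motif of promoters and enhancers. SOX2 is known to bind DNA beside a POU partner on composite sites: POU5F1 (OCT4) in pluripotent cells, POU3F2 (BRN2) and its class III relatives in neural progenitors. Which POU factors a SOX2-expressing tumour line transcribes bears on the pool of possible partners. Only RNA was measured here, and neither protein levels nor binding to SOX2 were.

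The part of the homeodomain that reads the DNA is its recognition helix. A stretch of 30 coding bases within each helix, read from GENCODE release 29 transcripts (GRCh38), is given 5′ to 3′. Capitals mark a base that differs from POU3F2. Each stretch was found by the residues WFCN, so these residues match by choice and the stretch does not measure how related the genes are.
POU3F2: agagtttggttttgtaacaggagacagaaa
POU3F1: CgCgtCtggttCtgCaacCggCgGcagaaG
POU3F3: CgGgtCtggttCtgCaaTCggCgCcaAaaG
POU2F1: CgTgtttggttCtgtaacCgCCgCcagaaa
POU2F2: CgCgtCtggttCtgCaacCggCgCcagaaG
POU2F3: agGgtCtggttCtgCaacCgACgCcaAaaG
POU4F1: CgGgtGtggttttgCaacCAgagacagaaG
POU5F1: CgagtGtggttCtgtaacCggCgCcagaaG
POU6F1: CgGgtCtggttCtgCaaTCggCgCcagaCG
The genes differ from POU3F2 at 7 to 11 of these 30 bases, yet POU3F1, POU3F3, POU2F1, POU2F2, POU2F3 and POU5F1 encode the same residues there. POU4F1 and POU6F1 differ from POU3F2 by 1 residue each.

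Where members are alike, shared sequence bears on which gene a read is counted for. The longest identical coding runs among the 9 genes were found to see where reads could be confused. POU3F1 and POU3F3 share 83 consecutive bases, and POU3F2 shares 45 with POU3F1.
POU3F1 and POU3F3: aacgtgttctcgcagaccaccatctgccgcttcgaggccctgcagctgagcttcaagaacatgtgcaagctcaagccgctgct
POU3F2 and POU3F1: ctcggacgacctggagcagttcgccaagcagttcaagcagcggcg
Over whole transcripts the overlap was small for most members. Of the 31-base words of the longest coding transcript, 0.577% for POU3F2, 3.50% for POU3F3 and 0.0144% for POU2F1 also occur in another POU gene or pseudogene. POU5F1 stands apart, with 77.3% of its words found in other POU genes, the largest share in POU5F1B and the pseudogenes POU5F1P3 and POU5F1P4. Its counts are therefore uncertain among these copies. The table assigned 206 counts to POU5F1 over the 4 libraries, against 12 to POU5F1B, 13 to POU5F1P3 and 3 to POU5F1P4.

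**Figure D1:**
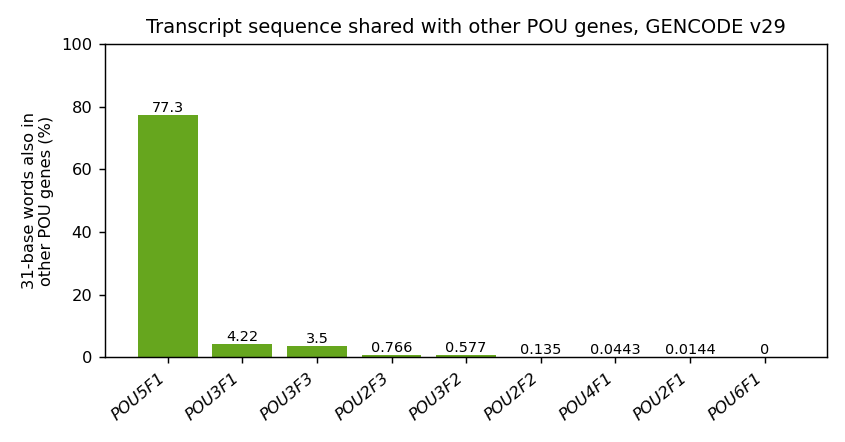
Bars give the percent of 31-base words of each member's longest coding transcript (GENCODE release 29) that also occur in another POU gene or pseudogene. POU5F1 is at 77.3% and the next highest, POU3F1, at 4.22%.

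POU3F2 was the most abundant member in every library, followed by POU3F3 and POU2F1. Levels between genes were compared as CPM per kilobase of exon, here of the exons on the reference chromosome. On this scale POU3F2 averaged 31.8 (range over the 4 libraries 31.2 to 32.2), POU3F3 20.7 (20.1 to 21.7) and POU2F1 4.95 (4.73 to 5.21), and these ranges did not overlap. POU6F1 followed at 1.88 (1.74 to 1.94) and POU4F1 at 1.87 (1.63 to 2.08), which overlapped each other on this length. Divided by the exon bases that no other listed gene shares, with the reads unchanged, POU4F1 was at 2.58 (2.25 to 2.87), above POU6F1. The sharing gene is on the opposite strand and the strand setting of the counts is not given, so which length applies is not known. POU5F1 was at 1.02 (0.746 to 1.26), and POU2F2 at 0.115 (0.0566 to 0.153). POU2F2, POU3F1 and POU2F3 formed the low end, where neighbouring ranges overlapped. POU3F2 and POU3F3 together made up 83.7% to 85.1% of the summed level of the 9 genes in each library. SOX2 was 6.35 to 6.69 times as high as POU3F2 per kilobase in each library. Exon lengths are the union of all listed isoforms, so a gene whose transcribed isoform is shorter, as may hold for POU2F1 with its 14680 listed bases, is placed too low.

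**Figure D2:**
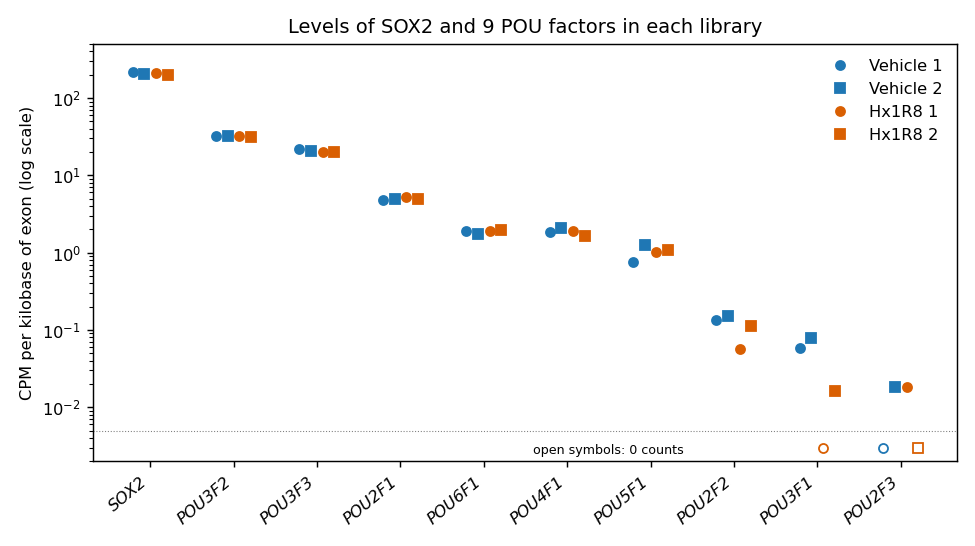
Each point is 1 library (blue Vehicle, orange Hx1R8; circle replicate 1, square replicate 2), and the vertical log axis gives CPM per kilobase of reference chromosome exon. The 9 POU factors span from POU3F2 at 31.8 on average down to POU2F3, which has 0 counts in 2 libraries (open symbols at the foot).

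The placing of POU5F1 depended on how its length was counted. The table lists 19377 exon bases for it, but these add up copies on 6 alternate contigs of chromosome 6, and the exons on the reference chromosome cover 2757 bases. With the listed length its level was 0.145 CPM per kilobase, which would put it beside POU2F2. With the reference length, chosen after the table was seen, it was 1.02. How reads that match several contigs were counted is not given in the sources used, so either level may be too low and the place of POU5F1 in the order is uncertain.

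POU3F2, a neural and neuroendocrine factor encoded by a single exon on chromosome 6 (98834574 to 98839458, hg38), did not differ detectably between the groups. It had 2756 and 2688 counts in Vehicle and 2697 and 3196 in Hx1R8, or 157 and 155 CPM against 157 and 152 CPM. The libraries lay close together and the groups overlapped. The fitted log2 difference was -0.02 (SE 0.05, adjusted p = 0.9999), or a fold between 0.923 and 1.06 at 95%. Levels of RNA in a bulk sample cannot tell fewer cells of a kind from less RNA per cell.

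POU3F3 (BRN1), another single-exon class III gene of the developing brain and kidney, lies on chromosome 2 (104854115 to 104858573). It had 1695 and 1611 counts in Vehicle and 1556 and 1876 in Hx1R8, or 96.8 and 93.1 CPM against 90.3 and 89.5 CPM. Both Hx1R8 libraries were the lower ones, by a small margin. Its log2 difference of -0.08 (SE 0.05, adjusted p = 0.9999) has a 95% interval in fold from 0.879 to 1.02. The ratio of POU3F2 to POU3F3 per kilobase was 1.48 and 1.52 in Vehicle and 1.58 and 1.56 in Hx1R8.

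POU3F1 (OCT6), the class III factor of Schwann cells and epidermis, was close to the limit of detection. It lies on chromosome 1 (38043829 to 38046793) and had 3 and 4 counts in Vehicle and 0 and 1 in Hx1R8. That is 7 counts against 1, a ratio of Hx1R8 to Vehicle of 0.130 with an exact 95% counting interval from 0.00289 to 1.02. The interval covers counting error only and includes no change. The low-count filter left this gene out of the test, and with no filter its adjusted p was 0.9948 (unadjusted 0.0659). A floor of 3 counts was 0.143 to 0.174 CPM, above the level in both Hx1R8 libraries.

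Of the class II factors, POU2F1 was well expressed and the other two were scarce. POU2F1 (OCT1) is the widely expressed octamer factor that acts on histone H2B and small nuclear RNA genes (chromosome 1, 167220885 to 167427345, 20 exon blocks). Its CPM values were 69.4 and 72.0 in Vehicle and 76.4 and 72.7 in Hx1R8. Both Hx1R8 libraries were the higher ones, though Hx1R8 replicate 2 exceeded Vehicle replicate 2 by less than the Vehicle libraries differed. The log2 difference was 0.07 (SE 0.06) with an adjusted p of 0.9999, and its 95% interval in fold was 0.972 to 1.14.

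POU2F2 (OCT2), the octamer factor of B lymphocytes, had the largest fitted difference and the fewest reads of the tested members. Its counts were 17 and 19 in Vehicle and 7 and 17 in Hx1R8, or 0.971 and 1.10 CPM against 0.406 and 0.811 CPM. Both Hx1R8 libraries were lower, and Hx1R8 replicate 1 was the lowest. The log2 difference of -0.71 (SE 0.39, adjusted p = 0.9999) has a 95% interval in fold from 0.351 to 1.06. The value rested largely on Hx1R8 replicate 1: it was -0.35 without that library and -1.33 without Hx1R8 replicate 2, with no call in either case. POU2F2 lies on chromosome 19 (42086123 to 42132473).

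POU2F3, which specifies tuft cells and marks a tuft-like class of small cell lung cancer, had 0 and 1 counts in Vehicle and 1 and 0 in Hx1R8. Both groups were under the floor of 3 counts, so no fold is given. It lies on chromosome 11 (120236638 to 120319945).

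The members of the remaining classes lay between these extremes. POU4F1 (BRN3A), a factor of sensory neurons on chromosome 13 (78598366 to 78603552), had 148 and 163 counts in Vehicle and 148 and 155 in Hx1R8. These were 8.45 and 9.42 CPM against 8.59 and 7.39 CPM, and the groups overlapped. The log2 difference of -0.17 (SE 0.13, adjusted p = 0.9999) has a 95% interval in fold from 0.744 to 1.06. An antisense gene on the opposite strand, LOC780529, covers part of its exons, leaving 72.3% of them unshared. That gene had 0 counts in all 4 libraries.

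POU6F1, a class VI factor found widely in the nervous system, had 284 and 252 counts in Vehicle and 277 and 341 in Hx1R8. On the CPM scale these are 16.2 and 14.6 in Vehicle and 16.1 and 16.3 in Hx1R8. Vehicle replicate 2 was the lowest library and the other 3 lay together. The log2 difference of 0.07 (SE 0.10, adjusted p = 0.9999) has a 95% interval in fold from 0.918 to 1.203. It lies on chromosome 12 (51186936 to 51218062).

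POU5F1, the pluripotency factor that partners SOX2 in embryonic stem cells, was at 36 and 60 counts in Vehicle and 48 and 62 in Hx1R8. The CPM values were 2.06 and 3.47 in Vehicle and 2.79 and 2.96 in Hx1R8. The Vehicle libraries were the lowest and the highest, so the Hx1R8 libraries fell between them. The log2 difference of 0.06 (SE 0.22, adjusted p = 0.9999) has a 95% interval in fold from 0.764 to 1.43. Leaving out Vehicle replicate 1 gave -0.27 and leaving out Vehicle replicate 2 gave 0.49. On the reference chromosome the gene lies at chromosome 6, 31164337 to 31170682.

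**Figure D3:**
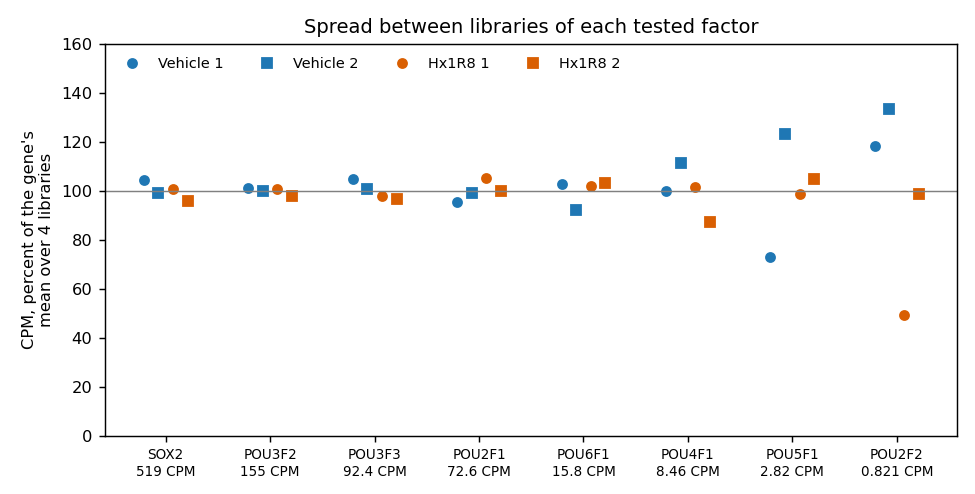
Each point is the CPM of 1 library as a percent of that gene's mean over the 4 libraries (blue Vehicle, orange Hx1R8; circle replicate 1, square replicate 2), for SOX2 and the 7 tested POU factors in order of level per kilobase. Points lie close to 100 for SOX2, POU3F2, POU3F3 and POU2F1 and spread widely for POU5F1 and POU2F2, which had 206 counts over the 4 libraries and at most 19 in a library.

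By edgeR's quasi-likelihood test, 0 of the 7 tested members passed an adjusted p of 0.05, where 0.0207% of all 14482 tested genes did. At an unadjusted p under 0.05 there were 0 members, against 3.39% of all tested genes. DESeq2 and limma-voom also called 0 members. DESeq2 gave 0 members an unadjusted p under 0.05, against 0.352% of all genes by that tool. By contrast, limma-voom gave 1 member, POU2F2, an unadjusted p under 0.05 (0.0439), against 3.44% of all genes by that tool. With 1 library left out, POU3F3 reached an unadjusted p of 0.0386 and SOX2 0.0148 without Vehicle replicate 2, where 6.12% of all tested genes were under 0.05. POU2F2 reached 0.0221 without Hx1R8 replicate 2, where 2.84% were. No member was called in either setting. The median log2 fold change of the 7 was -0.02, beside -0.0018 over all tested genes, with 3 above 0 and 4 below. In 3 of the 7 (POU3F3, POU2F1 and POU2F2) the groups did not overlap in CPM, against 29.8% of all tested genes. The only genes called in the whole table were TXNDC5, RNA28SN5 and IFI27, named after their values were seen, and none is a POU factor.

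The data bound how large a change could have been missed, within these libraries. For 6 of the 7 tested members the 95% interval excluded a change of 1.5-fold either way, as it did for 81.4% of all tested genes. POU2F2 was the exception. For POU3F2, POU3F3 and POU2F1, the 3 highest per kilobase, the intervals together spanned folds from 0.879 to 1.14. SOX2 itself was at 541 and 514 CPM in Vehicle, against 522 and 497 CPM in Hx1R8, a log2 difference of -0.05 (SE 0.05) at an adjusted p of 0.9999.

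**Figure D4:**
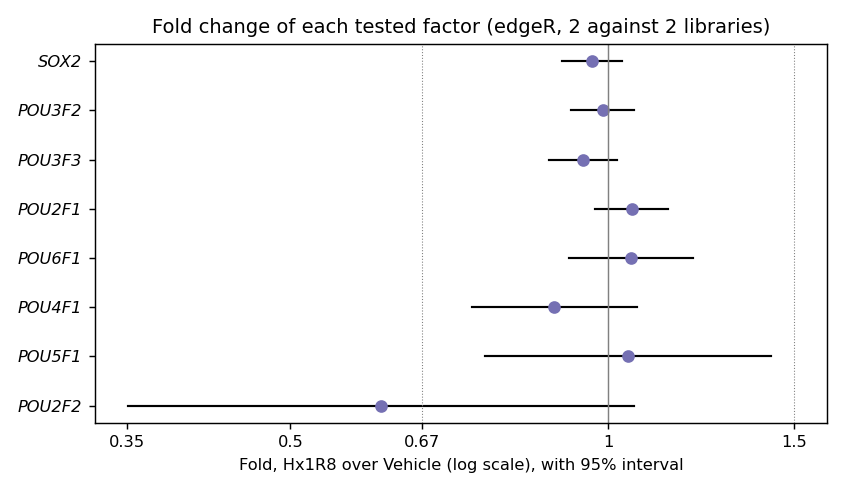
Points give the fitted fold of Hx1R8 over Vehicle (log axis) for SOX2 and the 7 tested POU factors, lines the 95% interval, and dotted lines a 1.5-fold change either way. Every interval includes 1, and that of POU2F2 runs from 0.351 to 1.06.

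**Figure D5:**
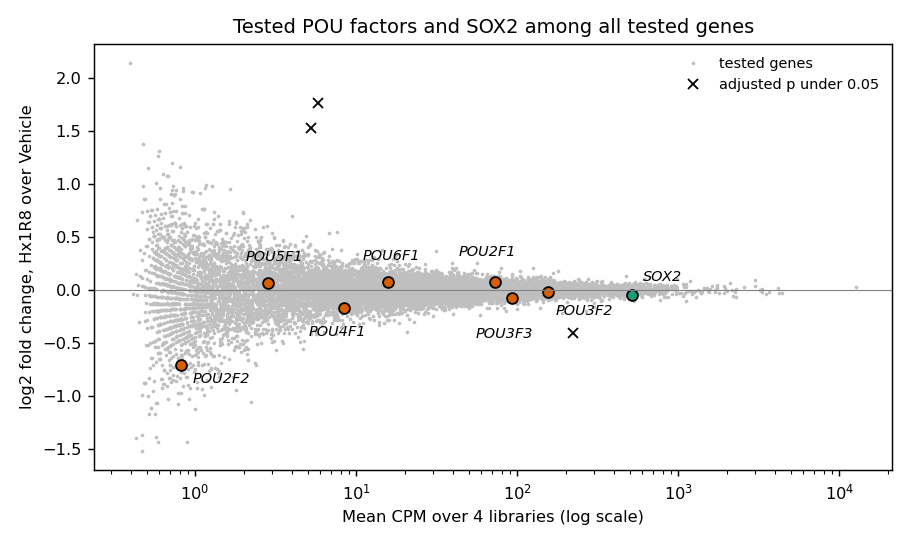
Each grey dot is 1 of 14482 tested genes, by mean CPM over the 4 libraries (log axis) and log2 fold change. The 7 tested POU factors (orange) and SOX2 (green) lie within the cloud of genes of like abundance, and crosses mark the 3 genes past the threshold.

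Of the other genes of the POU family, 6 were below 1 CPM in every library and had too few reads to be tested. POU1F1, POU3F4 and POU4F2 had 0 counts in all 4 libraries, and POU4F3, POU5F2 and POU5F1B had 5, 3 and 12 counts in all.

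Most listed cofactors of the octamer proteins were expressed, and no tested one passed the threshold. Of 9 listed genes, 1 was below 1 CPM in every library and 8 were tested. Of the 8, 0 passed the threshold, where 0.0207% of all tested genes did, and 4 had a log2 fold change above 0 and 4 below. The intervals of 7 excluded a 1.5-fold change either way, as did those of 81.4% of all tested genes. Their median log2 fold change was 0.02. HCFC1, a host cell factor that works with POU2F1, was at 436 ± 14.9 CPM without and 436 ± 16.1 CPM with Hx1R8 (SD, n = 2 each). SNAPC3 and SNAPC4, subunits of the complex that POU2F1 helps onto small nuclear RNA promoters, were at 81.2 ± 5.75 and 42.5 ± 0.27 CPM in Vehicle (SD, n = 2), with log2 fold changes of 0.05 (SE 0.06) and -0.01 (SE 0.07).

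Among the SOX factors, 13 of 19 were tested and 0 passed the threshold, where 0.0207% of all tested genes did. Their median log2 fold change was -0.01, with 6 above 0 and 7 below. In 7 of the 13 the groups did not overlap, against 29.8% of all tested genes. The intervals of 11 excluded a 1.5-fold change either way, as did those of 81.4% of all tested genes. SOX4 and SOX13 followed SOX2 in reads, at 365 ± 9.94 and 314 ± 3.41 CPM in Vehicle (SD, n = 2), with log2 fold changes of -0.01 (SE 0.05) and -0.03 (SE 0.05).

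Genes that accompany POU factors in their home tissues were present in part, and 0 of the tested ones passed the threshold. Of 17 neural genes 10 were tested, with a median log2 fold change of 0.01. Of the 17, 7 were below 1 CPM in every library and 2 had 0 counts throughout. TUBB3, a neuronal tubulin, was at 94.0 ± 1.83 CPM without and 95.3 ± 2.73 CPM with Hx1R8 (SD, n = 2 each). NES (nestin), a progenitor filament gene, was at 88.7 ± 0.039 and 87.7 ± 2.48 CPM. Of 15 pluripotency genes 4 were tested (median log2 fold change 0.06) and 11 stayed below 1 CPM in every library, the list being led by KLF4 at 278 ± 5.91 CPM in Vehicle (SD, n = 2), a gene that epithelia also use. FGF4, a growth factor gene with a known SOX2 and POU5F1 enhancer, was at 8.44 ± 0.012 CPM without and 9.17 ± 0.83 CPM with Hx1R8 (SD, n = 2 each), with a log2 fold change of 0.11 (SE 0.12).

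The companion lists of the 2 scarce class II genes were thin. This was not particular to them, as 11 of 15 pluripotency genes were also below 1 CPM in every library. Of 18 tuft cell genes 6 were tested, with a median log2 fold change of -0.03 and 0 past the threshold. In this list 12 genes were below 1 CPM in every library and 6 had 0 counts throughout, and the highest were AVIL at 17.3 ± 0.18 CPM and the receptor kinase gene KIT at 13.2 ± 0.069 CPM in Vehicle (SD, n = 2). Of 11 B cell genes 2 were tested, with a median of 0.15 and 0 past the threshold, and 10 were below 1 CPM in every library, the exception being CIITA, the MHC class II transactivator, at 2.99 ± 0.057 CPM in Vehicle (SD, n = 2). The summed level of the B cell list was 4.17 to 4.33 CPM in Vehicle and 4.10 to 4.88 CPM in Hx1R8. Of 14 sensory neuron genes, listed for POU4F1, 9 were tested with a median log2 fold change of -0.00062, and the list was led by RUNX1 at 545 ± 13.7 CPM in Vehicle (SD, n = 2), also a blood and epithelial factor. Of these 14 genes, 6 were below 1 CPM in every library and 1 had 0 counts throughout. TLX3, a sensory neuron homeobox gene, was at 20.4 ± 1.29 CPM without and 19.95 ± 1.99 CPM with Hx1R8 (SD, n = 2 each).

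Promoters were searched for the octamer ATGCAAAT on both strands, in RefSeq windows of 300 bases (GRCh38.p14), 250 of them before the start site. It occurs in 1.77% of all 35116 windows. Of the members, 7 had at least 1 window, and the octamer was found for POU2F1 alone, in the window of an internal start site at chr1:167328820-167329119 on the plus strand. A SOX core, ACAAAG, which occurs in 16.1% of all windows, was found in the same window. The sites are shown on the plus strand, where each motif reads as its reverse complement, in capitals.
POU2F1 octamer: aacgaggagagATTTGCATaaggccctaat
POU2F1 SOX core: ccagctgcaatCTTTGTttctattttatta
Both are matches of letters and not measured binding. H2B histone genes, textbook targets of POU2F1, held the octamer for 13 of 16 genes. Of these 16 genes, 15 were below 1 CPM in every library and 4 were tested, with a median log2 fold change of 0.25, a highest value of 0.81 and 0 past the threshold. Of the 4, 3 had a log2 fold change above 0 and 1 below. The intervals of 0 of the 4 excluded a 1.5-fold change either way, against 81.4% of all tested genes. In 3 of the 4 the groups did not overlap, against 29.8% of all tested genes. The summed level of the list was 8.11 to 9.47 CPM in Vehicle and 9.78 to 10.2 CPM in Hx1R8. How RNA was selected for the libraries was not examined here, so these low levels need not mean that the genes are little transcribed. H2BC12, the most abundant, was at 3.91 ± 0.68 CPM without and 4.93 ± 0.50 CPM with Hx1R8 (SD, n = 2 each), a log2 difference of 0.33 (SE 0.17) at an adjusted p of 0.9999.

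The genes whose values over the 4 libraries followed POU3F2 most closely were UBQLN1, ATP1B3 and SLBP. They differed from it by a root mean square of 0.0039, 0.0043 and 0.0048 in centred log2 CPM, among 6393 genes with a mean of at least 32 CPM. With 4 libraries that hardly differed, 485 genes lay within 0.02 of POU3F2, so the order is a description of these libraries only.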

How the data were processed

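The authors deposited raw counts per gene for the 4 libraries, made from reads that STAR 2.7.9 placed on hg38, per the submitters' processing notes. Which tool, annotation and strand setting produced the counts is not given in the sources used. After 2 lines that split 1 read-less gene were dropped, 28277 genes remained, and 0 reads stood in rows without a gene name. The test was edgeR 4.0.16 (R 4.3.3) with TMM factors, filterByExpr and the quasi-likelihood F test of group, two-sided. Benjamini-Hochberg adjustment ran over the 14482 genes kept, with a threshold of 0.05. Intervals of folds came from the fitted model, with 36.9 prior degrees of freedom. Every pair of libraries differed by more than sampling noise (chi-square per gene between 1.49 and 2.96). On counts simulated for this comparison over 14333 genes, the test recovered 72% of 1.2-fold, 94% of 1.5-fold and 100% of 2-fold and of 4-fold changes among well-covered genes, with 10 unchanged genes called. The simulation changed many genes at once, whereas 3 genes were called in the data. More changed genes make the adjusted threshold easier to pass, so these rates may be too high for the data.

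CPM used library totals times the TMM factors. Levels between genes were divided by exon length. The members and the 10 gene lists (138 entries, all found, 3 by synonym) were chosen with earlier results of these data known. The naming rule took the 9 members, SOX2, the 3 most abundant genes of each list (a part of which is printed) and the 3 genes closest to POU3F2 in profile. Other genes, TP63, KRT14, DSG3 and the pseudogenes among them, were named after their values were seen. Alternatives were other scaling factors, other filters, DESeq2 1.42.0, limma-voom (limma 3.58.1), a replicate block and leaving out each library. Sequences came from GENCODE release 29 and RefSeq. The promoter table gave no window for POU2F3 and POU5F1. For 1 listed gene the result is not reported here.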

Additional observations from a re-analysis of the deposited data

How the results depend on the processing

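In the 8 alternatives that kept all libraries, 0 members were called and 2 or 3 genes of the whole table were. A replicate block left 3 genes and 0 members called. The replicate numbers pair nothing in the labels, and the deviations of libraries with equal numbers had a correlation of 0.031 across genes. When 1 library was left out, the single remaining one was taken to vary as the other group does, and 6 to 79 genes (79 without Vehicle replicate 1, 31 without Vehicle replicate 2, 7 without Hx1R8 replicate 1, 6 without Hx1R8 replicate 2) and 0 members were called. Of 95 recomputed log2 fold changes of the 7 tested members and SOX2, 3 changed sign, all with 1 library left out and none called: POU5F1 (-0.27 to 0.49, negative without Vehicle replicate 1), POU6F1 (-0.0017 to 0.15, negative without Vehicle replicate 2) and POU3F2 (-0.035 to 0.0016, positive without Hx1R8 replicate 2). The lowest adjusted p among the 95 was 0.542. Divided by the exon bases shared with no other gene, with the reads unchanged, the level of POU4F1 moved from 1.87 to 2.58 CPM per kilobase, which put it above POU6F1. As the sharing gene is on the opposite strand and the strand setting is not given, this order is uncertain. The level of POU5F1 moved from 0.145 to 1.02, as it did with the exons of the reference chromosome, chosen after seeing the data. Depth limits statements on POU3F1, POU2F3 and POU2F2.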

Other observations

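The inflated exon length of POU5F1 is shared by other genes of the table. Exons on alternate or patch contigs are listed for 1766 of 28277 genes, and for 711 of the 14482 tested genes (4.91%) the listed length is at least 1.5 times that of the reference chromosome exons. POU5F1, at 7.03 times, is the 1 tested POU member among them. Counts and fold changes do not use this length, whereas levels per kilobase do.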
